A study of Mus musculus with 32 samples.

Results

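Dppa5a promoter contacts were read here as the DNA fragments joined to the Capture-C bait at the Dppa5a promoter, at distances from 10 kb up to 1 Mb on mouse chromosome 9. The pairs were taken by bait and distance alone, from both deposited contact tables, and joined by their fragment numbers. This gave 80 pairs, of 2517 pairs of the Dppa5a bait and 30435 pairs of all 14 baits. Each table listed 73 of the 80 pairs, and 66 stood in both.

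The material was small-intestinal epithelial organoids, which are three-dimensional cultures grown from gut stem cells, of aged C57BL/6JRj mice. The series' design text gives the aged animals of its organoid work as 20 to 22 months old, and every library here came from aged mice. Organoids at passage 2 to 5 received IFNγ at 500 pg/ml for 3 hours, 3 days after splitting, or growth medium without IFNγ for the same time, and 25000 cells per library were crosslinked. Both conditions were made from the same 2 mice, each at 2 passages, which gave 4 libraries per condition, and the 32 sequencing samples were these 8 libraries on 4 lanes. Libraries therefore share mice within and across conditions, so that p-values from unpaired tests of them can come out too low or too high. The labels do not settle which table holds which condition: IFNγ samples point to the file whose name reads control, and control samples point to the file whose name reads IFNγ. The tables are called control-named and IFNγ-named, with no condition assigned to either, and a library is known only by its number in a table. Signed differences are IFNγ-named minus control-named, and their sign turns under the opposite subtraction. Contact counts hold no expression values, so the labelled tissue could not be checked by its markers.

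Dppa5a encodes a small KH-domain RNA-binding protein known from pluripotent stem cells, early embryos and germ cells. Its neighbourhood holds the related oocyte gene Ooep, the alpha-class glutathione S-transferases (enzymes that conjugate glutathione to electrophiles), the cytosolic DNA sensor Cgas and the translation factor gene Eef1a1. In Capture-C, crosslinked chromatin is cut, here with DpnII at the sequence GATC, fragments that lie close together are ligated, and the ligation products of a bait are enriched and counted per partner fragment. Counts usually fall with distance along the chromosome, because near fragments meet more often, and a promoter can also meet a distant fragment through a loop.

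The bait was a single DpnII fragment of 391 bp at chr9:78368132-78368522 (mm10). It spans the start of Dppa5a (ENSMUSG00000060461.5), which lies on the minus strand from 78367052 to 78368177. Lower coordinates are thus downstream of the promoter and higher coordinates upstream of it. Of 13 pieces of 30 bases that make up the bait, 0 occurred a second time in the assembled chromosomes. RefSeq lists the pseudogenes Dppa5b and Dppa5c on the downstream side, and each aligned to 31 bases of the bait, at an identity of 96.8%.

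The fragments that carry most of what follows are printed from the RefSeq GRCm38 (mm10) genome, 5′ to 3′ on the plus strand. Capitals mark the DpnII site GATC where the stretch begins with the fragment, and matches to AGGNGGC, a part of the core motif of the insulator protein CTCF, on either strand. The first had the most reads, the next pair scored high in both tables with 1 library far above the others, and the last pair was read at like levels in all 8 libraries. Fragments are named by their signed distance from the bait, negative towards lower coordinates.

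-11.7 kb, chr9:78356493-78356742: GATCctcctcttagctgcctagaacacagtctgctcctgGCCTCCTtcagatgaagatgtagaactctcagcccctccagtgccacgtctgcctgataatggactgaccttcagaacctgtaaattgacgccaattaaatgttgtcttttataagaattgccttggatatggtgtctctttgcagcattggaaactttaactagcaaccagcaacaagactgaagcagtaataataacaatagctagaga

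-469.3 kb, first 300 bases, chr9:77898776-77899075: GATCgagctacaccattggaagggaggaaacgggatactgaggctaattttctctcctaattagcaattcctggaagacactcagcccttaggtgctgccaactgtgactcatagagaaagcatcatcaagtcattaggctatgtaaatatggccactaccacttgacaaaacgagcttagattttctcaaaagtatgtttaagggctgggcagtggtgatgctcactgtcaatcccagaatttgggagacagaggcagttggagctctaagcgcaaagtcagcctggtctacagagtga

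-331.1 kb, chr9:78037119-78037328: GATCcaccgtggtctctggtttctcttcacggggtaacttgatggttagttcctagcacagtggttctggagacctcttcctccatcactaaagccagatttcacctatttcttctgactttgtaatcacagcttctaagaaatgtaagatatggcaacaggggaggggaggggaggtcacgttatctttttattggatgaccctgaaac

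-273.4 kb, first 300 bases, chr9:78094717-78095016: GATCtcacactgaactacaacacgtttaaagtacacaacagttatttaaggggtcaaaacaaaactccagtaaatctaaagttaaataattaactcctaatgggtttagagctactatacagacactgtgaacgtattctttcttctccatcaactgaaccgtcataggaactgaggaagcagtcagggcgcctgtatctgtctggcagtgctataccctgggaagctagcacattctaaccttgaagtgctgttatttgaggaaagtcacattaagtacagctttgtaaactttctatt

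+146.7 kb, 300 bases within the fragment, chr9:78514800-78515099: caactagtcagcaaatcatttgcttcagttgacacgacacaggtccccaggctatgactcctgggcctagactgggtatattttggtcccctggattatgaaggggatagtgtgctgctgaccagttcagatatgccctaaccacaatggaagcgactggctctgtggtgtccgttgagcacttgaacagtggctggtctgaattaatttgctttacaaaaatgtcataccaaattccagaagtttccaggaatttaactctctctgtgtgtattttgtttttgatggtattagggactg

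The stretch at -11.7 kb held 1 AGGNGGC match, on the minus strand, and the other printed stretches held 0. Of tiles of 250 bases in the surrounding region, 9.19% held AGGNGGC. Over all 80 fragments, 25 held it (31.3%). Among all digest fragments of the range with lengths between those of the shortest and longest read fragment, 17.2% did. Of the 13 called fragments, those with a score of 5 or more in a table, 4 held it (30.8%). Among all fragments within their lengths 18.8% did, and 0 of the 4 called in both tables did. The median length was 474.5 bp for the read and 565 bp for the called fragments. It was 399 and 483 bp for the sets of like lengths. A match is a description of the letters and shows no bound factor.

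The range from 10 kb to 1 Mb contains 4840 DpnII fragments, of which the 80 read ones are 1.65%. These fragments took 1956 reads, of which the control-named table held 1045 and the other 911. The control-named libraries held 298, 239, 262 and 246 of them, and the IFNγ-named libraries held 159, 263, 219 and 270. So few reads per library limit the precision, and intervals or limits from such reads cover counting error only, since the tables hold no counts of molecular identifiers. In all, the libraries held 23037 to 37290 reads over the 14 baits.

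The Dppa5a bait took 4.15%, 3.89%, 5.64% and 3.91% of all reads in the control-named libraries and 3.16%, 3.47%, 4.28% and 4.04% in the IFNγ-named libraries. The groups overlapped, and library 3 of the control-named table was the highest. The log2 difference in the bait's reads was -0.22 (SE 0.170), and the quasi-likelihood test of edgeR over the 14 baits gave an adjusted p of 0.675. By adjusted p, 0.00% of the baits were under 0.05 in that test. By unadjusted p, 7.14% were, and Dppa5a was not among them.

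Of the bait's reads, 20.8%, 16.5%, 16.0% and 25.7% fell between 10 kb and 1 Mb in the control-named libraries, and 21.9%, 24.5%, 20.5% and 24.7% in the IFNγ-named ones. The means were 19.7% ± 4.50 and 22.9% ± 2.05 (SD, n = 4 each; two-sided exact permutation p = 0.286). The median library had 21.3% there, against 16.1% to 35.5% at the other 13 baits. The rest of the bait's reads lay closer (6.79% ± 3.01 and 7.05% ± 1.40), beyond 1 Mb on chromosome 9 (19.7% ± 3.37 and 23.8% ± 3.31) or on other chromosomes (53.8% ± 10.5 and 46.2% ± 2.69; n = 4 each). Other chromosomes thus took more of the bait's reads than the whole range from 10 kb to 1 Mb.

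**Figure D1:**
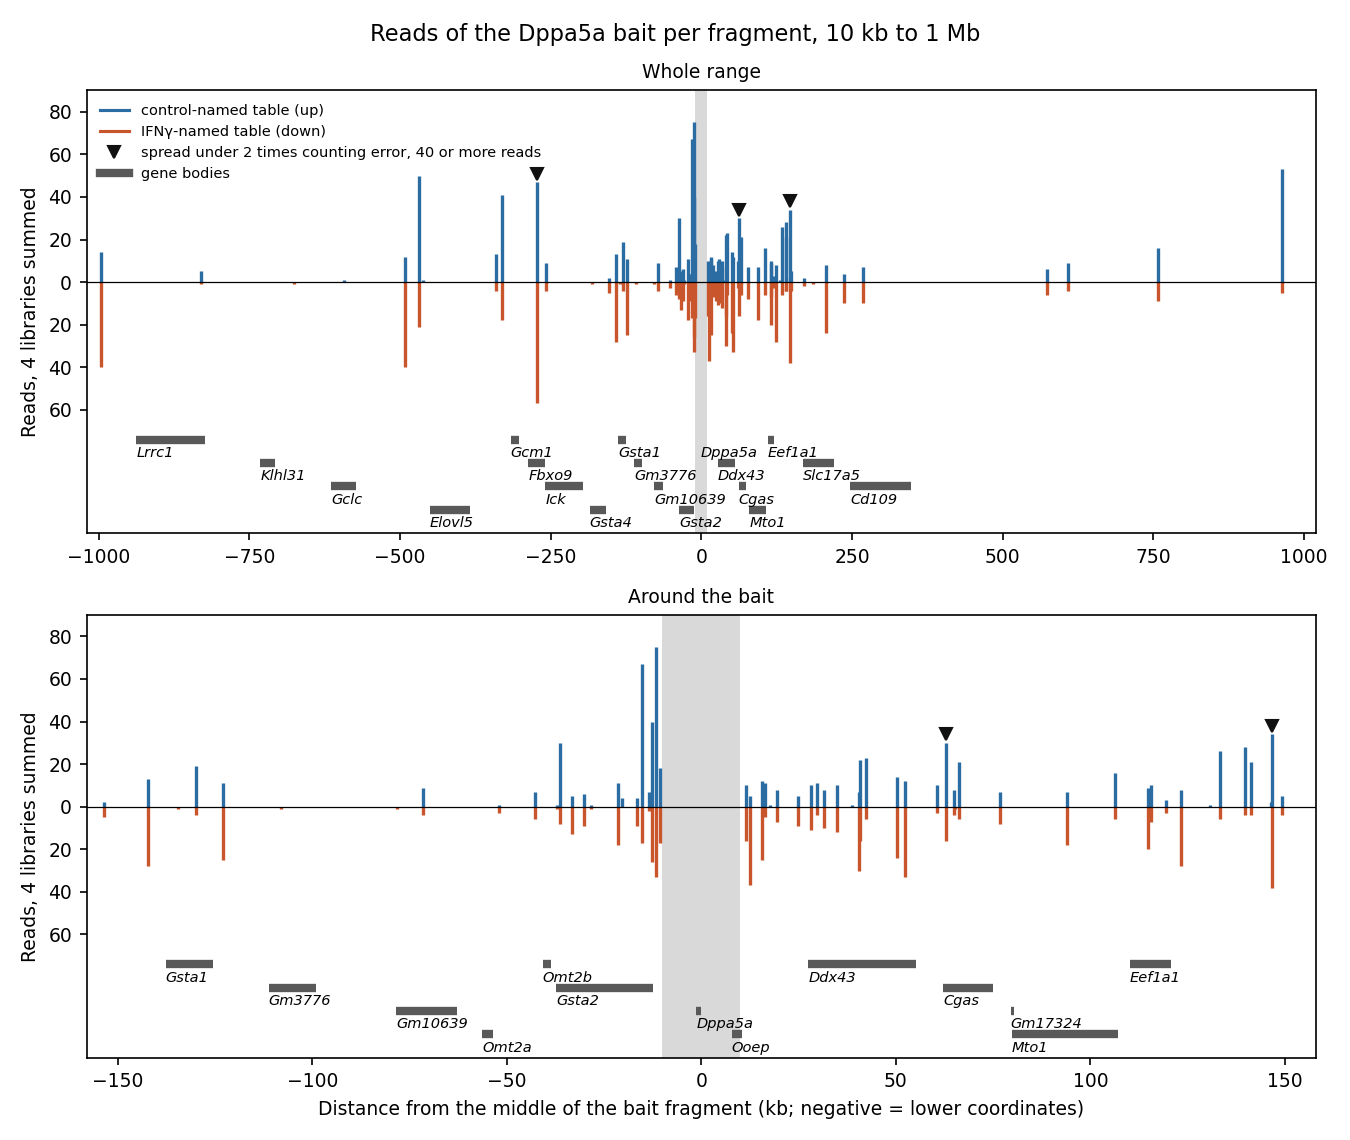
Reads per fragment of the Dppa5a bait (4 libraries summed) against distance from the middle of the bait in kb, for the control-named table (bars up) and the IFNγ-named table (bars down), over the whole range (top) and enlarged around the bait (bottom). Grey bars show gene bodies at their own distances, with a selection of genes in the top panel, the shaded band is the excluded 10 kb, and triangles mark the 3 fragments with 40 or more reads and a spread under 2 times counting error, at -273.4, +62.9 and +146.7 kb.

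Both sides of the promoter were contacted. The downstream side had 35 fragments and 943 reads over 2365 possible fragments, and the upstream side had 45 fragments and 1013 reads over 2475. The downstream share was 48.0%, 54.4%, 56.9% and 41.5% in the control-named libraries and 54.7%, 58.9%, 45.2% and 28.9% in the IFNγ-named ones. The means were 50.2% ± 6.91 and 46.9% ± 13.3 (SD, n = 4 each; two-sided exact permutation p = 0.714). Library 4 of the IFNγ-named table was the lowest, and without it the difference turned from -3.24 to 2.77 percentage points. With the range started at 20 kb the difference turned to 4.18 points.

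Reads were most dense near the bait and thinned towards 1 Mb. From 10 to 100 kb, 454 reads fell on 17 of 236 downstream fragments and 554 on 24 of 221 upstream fragments. Fragments at 10 to 20 kb held 23.1% of the reads in range, those at 20 to 50 kb 16.2%, at 50 to 100 kb 12.3%, at 100 to 200 kb 20.3%, at 200 to 500 kb 19.4% and at 500 to 1000 kb 8.69%. The other 13 baits had medians of 12.6%, 16.6%, 13.3%, 15.1%, 22.9% and 13.6% in these steps, and every Dppa5a value lay within their range. The first step came close to their highest value, 23.2%. Beyond 300 kb only 13 of 3357 fragments had reads, 9 downstream and 4 upstream, with 370 reads. Between the tables, the steps had two-sided exact permutation p-values from 0.314 to 0.800 (n = 4 each), and the libraries overlapped in each.

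The region within 1 Mb holds 22 other protein-coding genes. Reads fell on the bodies of 15 of them, and 8 genes had 20 or more reads. Fragments outside protein-coding genes numbered 36 of the 80 and took 51.6% of the reads, and such fragments are 67.0% of all fragments in range. The share outside genes was 51.8% ± 10.6 in the control-named libraries and 51.3% ± 4.45 in the others (SD, n = 4 each; two-sided exact permutation p = 0.914). Library 3 of the control-named table, at 67.2%, was the highest.

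Among the glutathione genes of a fixed list, all 4 in the region had reads, 306 reads over 224 possible fragments in range, and Gsta2 held most of them. Gsta2, from 78331018 to 78355788 on the minus strand, is the nearest gene downstream in this range and encodes an alpha-class glutathione S-transferase. It had 280 reads on 11 of its 54 fragments in range, the most of any gene. Its share of the reads in range was 25.8%, 16.3%, 7.63% and 16.3% in the control-named libraries and 15.7%, 6.84%, 16.9% and 8.89% in the IFNγ-named ones. Both tables thus spanned a wide and overlapping range, with means of 16.5% ± 7.44 and 12.1% ± 4.97 (SD, n = 4 each). The edgeR log2 difference was -0.52 (SE 0.480, adjusted p = 0.561), and with the range started at 20 kb the share difference turned to 0.196 percentage points.

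Single fragments made up most of the Gsta2 signal. The intronic fragment at -15.3 kb had 32, 4, 8 and 23 reads in the control-named and 3, 2, 5 and 7 in the IFNγ-named libraries. Its control-named libraries 1 and 4 stood above the rest and the other libraries overlapped (log2 -1.87, SE 0.760, edgeR adjusted p = 0.284). The fragment at -12.7 kb, which covers the start of Gsta2, had 27, 4, 4 and 5 against 13, 2, 5 and 6 reads. The highest library of either table had 27 and 13 reads, and the other 6 libraries had 2 to 6. The exonic fragment at -36.2 kb had 3, 24, 1 and 2 against 1, 4, 1 and 2 reads, so that 1 library held 63.2% of its 38 reads. Of the 50-base words in the Gsta2 body, 20.7% occur more than once in the region, which bears on how reads can be placed there, and its part in the result was not tested.

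The remaining glutathione genes of the list had few reads. Gsta1, with the same enzymatic role, had 24 reads, 16 of them in library 1 of the control-named table on the intronic fragment at -129.8 kb and 1 in each other library there. Gsta4 and Gclc, the catalytic subunit of the enzyme that starts glutathione synthesis, had 1 read each. Of the 50-base words in Gsta1, 88.2% occur more than once in the region, so few reads there do not show few contacts.

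The KH-domain relative Ooep, an oocyte protein of the maternal subcortical complex, lies so close to the bait that 1 of its fragments fell in range, and it had 0 reads. Several fragments just upstream of Ooep were read. The fragment at +11.4 kb had 3, 1, 4 and 2 reads in the control-named and 2, 3, 8 and 3 in the IFNγ-named libraries. The fragment at +12.5 kb had 2, 1, 1 and 1 against 1, 1, 2 and 33 reads. The former was read at low levels throughout, and in the latter library 4 of the IFNγ-named table held 78.6% of 42 reads.

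On the upstream side, Ddx43 and Cgas, the list of nucleic acid genes, had 350 reads over 91 possible fragments in range. Ddx43, a DEAD-box RNA helicase known from germ cells, had 264 reads on 10 of 61 fragments. Its share was 11.1%, 17.6%, 7.63% and 9.35% in the control-named libraries and 13.8%, 19.8%, 12.8% and 16.3% in the IFNγ-named ones. The means were 11.4% ± 4.34 and 15.7% ± 3.10 (SD, n = 4 each; two-sided exact permutation p = 0.171). The control-named libraries were lower apart from library 2, and the groups overlapped. The edgeR log2 difference was 0.46 (SE 0.381, adjusted p = 0.520).

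Within Ddx43 the reads spread over the gene body. The intronic fragments at +40.6 and +40.9 kb adjoin each other. The former had 1, 2, 2 and 2 reads in the control-named and 5, 15, 8 and 2 in the IFNγ-named libraries (log2 2.10, SE 0.722, edgeR adjusted p = 0.284). The latter had 5, 11, 2 and 4 against 4, 3, 2 and 7 (log2 -0.29, SE 0.653, edgeR adjusted p = 0.777). The exonic fragments at +50.3 and +52.5 kb had 38 and 45 reads. The former had 15 in IFNγ-named library 2, and the latter 11 and 17 in IFNγ-named libraries 2 and 4. No other library had more than 4 at either.

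Cgas, the sensor of cytosolic DNA that makes the second messenger cGAMP, was the 1 gene of the 8 with 20 or more reads whose libraries did not overlap between tables. Its share was 4.03%, 5.02%, 6.87% and 6.91% in the control-named libraries and 3.77%, 1.90%, 3.65% and 2.96% in the IFNγ-named ones. All control-named libraries lay above all IFNγ-named ones, with a narrow gap between 4.03% and 3.77%. The means were 5.71% ± 1.43 and 3.07% ± 0.859 (SD, n = 4 each). The two-sided exact permutation p was 0.0286, and no smaller p is possible with 4 libraries a table. It was 0.929 after Benjamini-Hochberg adjustment over the 130 bait and gene shares of all baits. Over those 130 shares, 3.08% did not overlap, so 1 gene of 8 is too few to set apart from that background. By adjusted p 0.00% passed. With this smallest p, an adjusted p under 0.05 would have needed far more shares at it than the 4 that reached it. That 0.00% therefore does not show a lack of differences.

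The Cgas reads were 86 on 4 of 30 fragments. The fragment at +62.9 kb, which covers the 3′ end of the gene, had 8, 4, 5 and 13 reads in the control-named and 3, 2, 5 and 6 in the IFNγ-named libraries. The intronic fragment at +66.3 kb had 3, 4, 12 and 2 against 2, 2, 1 and 1. At each of these fragments alone the tables overlapped, and the edgeR log2 differences were -0.84 and -1.63. Summed over the gene the edgeR log2 difference was -0.99 (SE 0.570, adjusted p = 0.405), and it stayed between -1.15 and -0.78 with any 1 library left out. With fragments assigned by a start site within 5 kb in place of the gene body, the difference turned to 0.41. That assignment rests on the fragment at +76.8 kb, with 15 reads.

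**Figure D2:**
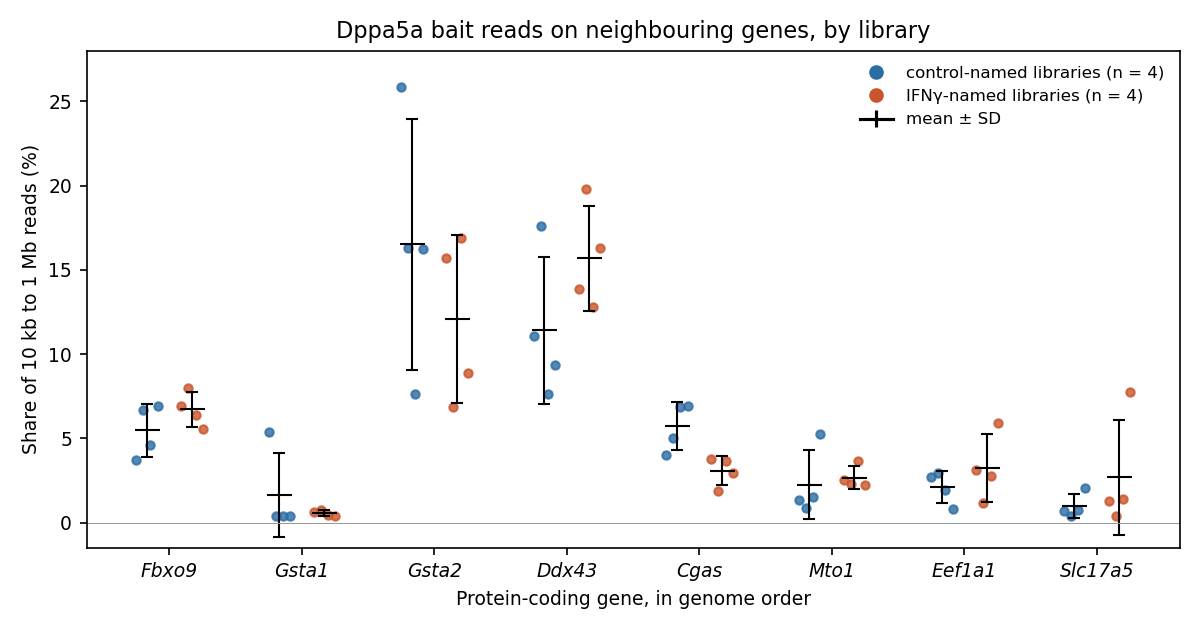
Share of the Dppa5a bait's 10 kb to 1 Mb reads on the body of each gene with 20 or more reads, in percent, per library (points, n = 4 per table), with mean and SD (black). At Cgas the 4 control-named libraries, 4.03% to 6.91%, lie above the 4 IFNγ-named ones, 1.90% to 3.77%, and at every other gene the tables overlap.

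Fbxo9, the substrate receptor of an SCF ubiquitin ligase, lies 259.3 kb downstream and yet had the third most reads of any gene. Its 117 reads lay on 2 of 81 fragments, 104 of them on 1 fragment. Its share was 3.69%, 6.69%, 4.58% and 6.91% in the control-named libraries and 6.92%, 7.98%, 6.39% and 5.56% in the IFNγ-named ones. The tables overlapped, with means of 5.47% ± 1.58 and 6.71% ± 1.02 (SD, n = 4 each; two-sided exact permutation p = 0.257). Elovl5, a fatty acid elongase gene with 160 fragments in range, lies farther away in the same direction and had 0 reads, which allows a share of up to 0.153% of the reads in range. Ick, a kinase gene that starts beside Fbxo9, shares the fragment at -258.3 kb with it, and its 13 reads are those of that fragment.

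The housekeeping genes on the upstream side had 99 reads over 100 possible fragments in range. Eef1a1, the translation elongation factor, had 52 reads on 3 of 25 fragments, with shares of 2.68%, 2.93%, 1.91% and 0.813% against 3.14%, 1.14%, 2.74% and 5.93%. Mto1, which modifies mitochondrial tRNAs, had 47 reads on 2 of 75 fragments, with shares of 1.34%, 0.837%, 1.53% and 5.28% against 2.52%, 2.28%, 3.65% and 2.22%. At both genes the tables overlapped and library 4 of one table stood highest. The edgeR log2 differences were 0.67 (SE 0.693, adjusted p = 0.609) and 0.09 (SE 0.730, adjusted p = 0.974), and without IFNγ-named library 4 the Eef1a1 difference was 0.051. At Mto1 the sign turned when any of 3 libraries was left out.

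Farther upstream, Slc17a5, the lysosomal sialic acid exporter, had 37 reads on 3 of 147 fragments. Library 4 of the IFNγ-named table held 7.78% there, against 0.380% to 2.03% in the other 7 libraries. Without it the log2 difference turned from 1.46 (SE 0.991, adjusted p = 0.449) to -0.17. Cd109, a membrane-anchored protein gene, had 17 reads. Lrrc1, at the far downstream end, had 6 reads, and the predicted genes Gm10639 and Gm3776 had 14 and 1. Besides Elovl5 and Ooep, the genes Klhl31, Gcm1, Omt2a, Omt2b and Gm17324 had 0 reads. Of the 50-base words in Gm10639, Gm3776, Omt2a and Omt2b, 31.9%, 88.9%, 41.9% and 49.4% occur more than once in the region. Few or 0 reads at these genes therefore do not show few contacts.

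Over bait and gene counts edgeR tested 11 Dppa5a genes, and 0 had an adjusted p under 0.05 or an unadjusted p under 0.05. The smallest adjusted p was 0.405. Over all baits 0.00% of 144 counts passed the adjusted and 15.3% the unadjusted threshold. DESeq2 also gave 0 Dppa5a genes under either threshold. The median log2 difference was 0.09 over the Dppa5a genes and -0.12 over all 144.

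Many fragments were read mainly in 1 library. Of the 80 fragments, 55 had reads in all 8 libraries and 14 in 1 library. At -340.7, -129.8, +29.7, +139.7, +237.1 and +608.3 kb, 1 library stood high and every other library had exactly 1 read. How such single reads arose was not tested, so reads in all 8 libraries need not be 8 independent detections. In 32 fragments 1 library held over 50% of the reads, and these held 29.2% of all reads in range. The 12 fragments with 1 read in all are among the 32 by necessity. Of the 57 fragments with 10 or more reads, 16 had over 50% in 1 library. Their highest library had 8 to 50 reads and no other library more than 6. Among fragments with 40 or more reads, the highest library held a median of 46.0% for Dppa5a and 47.1% over all baits. Each of the 8 libraries held over 50% at some of these 32 fragments, from 1 fragment for library 4 to 9 for library 1 of the control-named table.

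**Figure D3:**
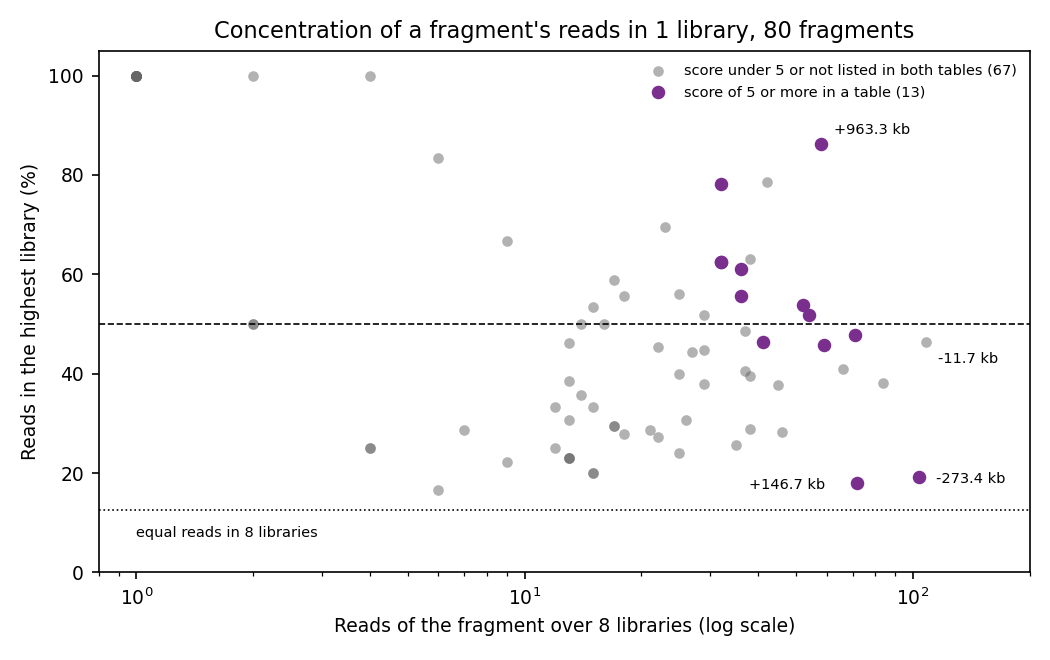
Percent of a fragment's reads that lie in its highest library against the fragment's reads over 8 libraries (log scale), for the 80 Dppa5a fragments, with the 13 that scored 5 or more in a table in purple. Darker grey marks overlapping points, the dashed line is 50% and the dotted line the equal share. The fragments at -273.4 and +146.7 kb, at 19.2% and 18.1%, lie far below the other purple points, and +963.3 kb is at 86.2%.

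A contact was called where the authors' score, computed on the 4 libraries of a table together, was 5 or more. Of 73 Dppa5a pairs in the control-named table, 7 were called (9.59%), and of 73 in the IFNγ-named one, 10 (13.7%). Over all baits in the same range the shares were 11.8% and 10.4%, so the Dppa5a shares lay near the background. In all 13 fragments were called, 4 of them in both tables, and 11 of the 13 lay outside protein-coding genes. None of the 41 fragments within 100 kb was called, and the nearest called one lay at 123.0 kb. The modelled background was higher near the bait, 1.56 and 1.29 reads at -11.7 kb against 0.0935 and 0.0792 at -273.4 kb. Just below the threshold lay the Ddx43 fragment at +52.5 kb, with a score of 4.94 in the IFNγ-named table, and just above it the fragment at -142.3 kb, with 5.05.

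Of the 4 fragments called in both tables, 2 were read at like levels in all libraries. The fragment at -273.4 kb, chr9:78094717-78095192, overlaps an exon of Fbxo9 past the stretch printed above. It had 10, 11, 11 and 15 reads in the control-named and 10, 20, 13 and 14 in the IFNγ-named libraries. Its scores were 6.00 and 7.11. The groups overlapped, and the variance over the 8 libraries was 0.903 times that of counting error, given each library's reads in range. The edgeR log2 difference was 0.34 (SE 0.493, adjusted p = 0.650).

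The fragment at +146.7 kb, chr9:78514750-78515314, lies between Eef1a1 and Slc17a5, 21.2 kb from the latter. It had 9, 10, 10 and 5 reads in the control-named and 4, 11, 13 and 10 in the IFNγ-named libraries. Its scores were 5.39 and 5.76. Here too the groups overlapped, and the variance was 0.877 times that of counting error. The edgeR log2 difference was 0.25 (SE 0.538, adjusted p = 0.758), and its neighbours at +146.3 and +149.3 kb had 2 and 9 reads in all.

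Evenness of this kind was rare among well-read fragments of any bait. Of the 14 Dppa5a fragments with 40 or more reads, 3 had a variance under 2 times counting error, these 2 and the Cgas fragment at +62.9 kb (1.83 times). Over all 14 baits 87 of 560 such fragments (15.5%) did, and 12 of the other 13 baits had at least 1. The median was 9.76 times for Dppa5a and 11.5 times over all baits. The Dppa5a share was thus close to that of the series, and these fragments were singled out after their values were seen.

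The remaining fragments called in both tables each had 1 high library in the control-named table. The fragment at -469.3 kb, 18.0 kb from Elovl5, had 3, 6, 34 and 7 against 5, 7, 6 and 3 reads (scores 6.29 and 5.15). The fragment at -331.1 kb, 14.6 kb from Gcm1, had 4, 27, 5 and 5 against 1, 5, 6 and 6 reads (scores 6.27 and 5.11). Outside their high library both stayed at 7 reads or fewer in every library, and the tables overlapped. Their log2 differences were -1.18 and -1.02, and without the high library of each they were 0.15 and -0.073.

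Of the 9 fragments called in 1 table, 8 had over 50% of their reads in 1 library. The most extreme lay at +963.3 kb, chr9:79331221-79332129, 266.9 kb from the nearest protein-coding gene, Col12a1. It had 1, 1, 1 and 50 reads in the control-named and 1, 1, 2 and 1 in the IFNγ-named libraries. A single library thus held 86.2% of its reads, and its scores were 6.73 and 0.588. The opposite end of the range, -996.5 kb, had 2, 6, 2 and 4 against 4, 28, 6 and 2 reads, and -492.1 kb had 4, 2, 3 and 3 against 3, 28, 3 and 6. Both were called in the IFNγ-named table alone, with scores of 8.42 and 7.11, and the highest count at both was that of library 2 of that table. Without it their log2 differences went from 1.55 to 0.38 and from 1.73 to 0.54.

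The stretch from +123.2 to +146.7 kb, beyond Eef1a1, held 4 of the called fragments. The fragment at +123.2 kb had 3, 1, 2 and 2 against 1, 1, 4 and 22 reads. The fragments at +133.2 and +139.7 kb had 20 and 25 reads in control-named library 1 and at most 3 in any other library. Between them and the even fragment at +146.7 kb lay +141.2 kb, not called, with 3, 2, 14 and 2 against 1, 1, 1 and 1 reads. Control-named library 1 was thus high at 2 of these 5 fragments, and other libraries at the fragments at +123.2 and +141.2 kb.

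On the downstream side the called fragments at -142.3 and -123.0 kb flank Gsta1. They had 2, 6, 2 and 3 against 19, 4, 3 and 2 reads, and 2, 5, 3 and 1 against 1, 20, 3 and 1. The second overlaps the edge of Dppa5b, within the bases that align to the bait. The intronic Slc17a5 fragment at +207.7 kb, with 2, 1, 1 and 4 against 2, 1, 1 and 20 reads, was the last called one.

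**Figure D4:**
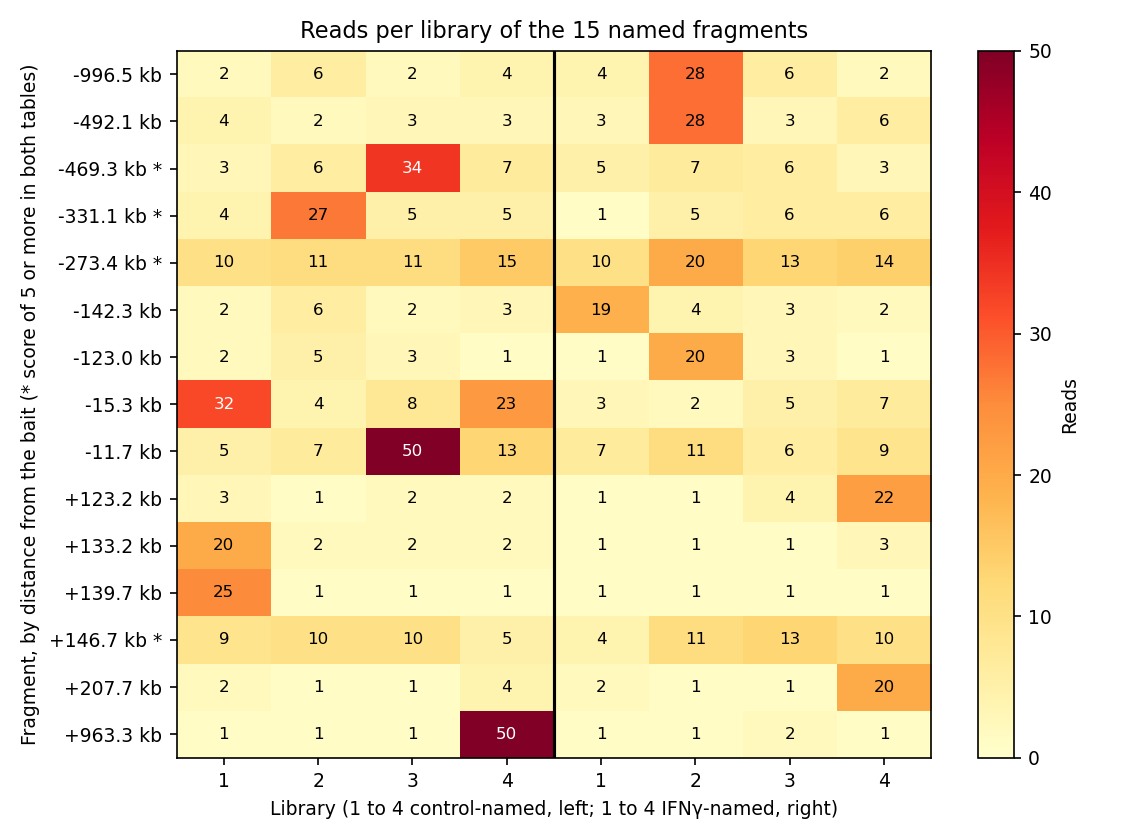
Reads in each of the 8 libraries (columns; control-named left, IFNγ-named right) for the 15 named Dppa5a fragments (rows, by distance from the bait), that is, every fragment called in a table and the 5 with the most reads, with stars on those called in both tables. Most rows have 1 dark cell, up to 50 reads at -11.7 and +963.3 kb, and the rows at -273.4 kb (10 to 20 reads) and +146.7 kb (4 to 13 reads) do not.

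The fragment with the most reads of all was not called. The fragment at -11.7 kb, between Gsta2 and Dppa5a, had 5, 7, 50 and 13 reads in the control-named and 7, 11, 6 and 9 in the IFNγ-named libraries. Apart from library 3 of the control-named table, the libraries ran from 5 to 13. Its scores were 4.08 and 3.79, and its log2 difference of -1.15 (SE 0.783, edgeR adjusted p = 0.345) turned to 0.11 without that library. Its neighbour at -10.5 kb was even, with 3, 3, 9 and 3 against 3, 5, 5 and 4 reads.

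The tests of single fragments found no difference past the threshold. Of 57 Dppa5a pairs with 10 or more reads, 0 had an adjusted p under 0.05 by edgeR and 5 had an unadjusted p under 0.05. Over all 3673 pairs of the 14 baits 0.00% passed the adjusted and 16.6% the unadjusted threshold. Those 3673 pairs include other distances and other chromosomes, so this background is not limited to the range of the 57. The 5 lay at -15.3, +12.5, +40.6, +141.2 and +963.3 kb, and in 3 of them 1 library held over 50% of the reads. Their log2 differences ran from -3.37 to 2.79, each with an edgeR adjusted p of 0.284. With DESeq2, 0 of the 57 pairs had an adjusted p under 0.05 and 3 had an unadjusted p under 0.05. The median log2 difference was -0.01 over the Dppa5a pairs in range and -0.09 over all pairs at any distance.

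Windows of 10 kb gave no call either. Of 36 Dppa5a windows, 0 passed an adjusted p of 0.05 by edgeR, where the smallest was 0.294, and 3 had an unadjusted p under 0.05. Over all 657 windows 0.00% passed the adjusted and 15.8% the unadjusted threshold. With DESeq2, 0 Dppa5a windows passed and 1 had an unadjusted p under 0.05. At this depth, with a biological coefficient of variation of 0.793 for pairs and 0.742 for windows, these counts do not show that contacts were alike between the tables.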

How the data were processed

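Fixed nuclei were cut with DpnII, ligated, sonicated and captured, per the labels. Bowtie2 and mm10 come from the submitters' processing notes. The contact caller, its settings and any removal of duplicates are not stated. Per the file headers, which match the output of CHiCAGO, the authors deposited for each pair the counts of reads in 4 libraries, the background signal of their model and a score.

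Tables were joined by fragment number, with 0 where a pair was not listed. All 266 starts of Dppa5a pairs on chromosome 9 lay at a GATC of GRCm38. Genes came from GENCODE vM21 protein-coding bodies, and a fragment at 2 genes counts for both. Fits used all baits: edgeR 4.0.16 (quasi-likelihood, TMM, 10 or more reads, Benjamini-Hochberg) and, as the alternative, DESeq2 1.42.0, in R 4.3.3. A DESeq2 adjusted p of NA, 1 among the Dppa5a pairs and 1 among the windows, stayed so. edgeR was tested on simulated data and had low power at the spread of these data. Shares were compared by two-sided exact permutation (Python 3.11.15), over genes with 20 or more reads for each bait. Nothing says that libraries of 1 mouse are independent.

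The members, gene lists and tests were chosen with earlier results of these data known. Named were the 10 genes with the most reads, the genes of the fixed lists (glutathione; nucleic acid and interferon response; KH family; housekeeping) within 1 Mb, the 5 fragments with the most reads and each fragment with a score of 5 or more. Listed genes beyond 1 Mb, such as Tmem30a and Cox7a2, had no fragment in range. Other named fragments and genes, and which sequence stretches are printed, were chosen after their values were seen. Some sequence results are not reported here. Alternatives covered normalization, filters, distance, gene assignment, score threshold, window size and libraries left out.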

Additional observations from a re-analysis of the deposited data

Results flagged for a closer look

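In 76 groups of 4 libraries, 18 times 1 library stood far from the other 3 by Dixon's test at 95%. For normally distributed values chance flags about 1 in 20 groups, here 3.80. Small counts with 3 equal values and 1 other are always flagged, so 3.80 is not the number to expect for the fragments. The named fragments had also been chosen for high counts or scores, so their flags are a description.

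Dppa5a took 5.64% of all reads in control-named library 3, against 3.89% to 4.15% in the others. The reads at 500 to 1000 kb made up 24.0% in control-named library 4, against 4.36% to 6.49%. That library holds the 50 reads at +963.3 kb, where the others of its table had 1 each.

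At 3 genes a single library was high. Gsta1 held 5.37% in control-named library 1 and Mto1 5.28% in control-named library 4, against 0.382% to 0.418% and 0.837% to 1.53%. Slc17a5 held 7.78% in IFNγ-named library 4, against 0.380% to 1.37%.

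Of the named fragments, those at -996.5 and -492.1 kb had 28 reads each in IFNγ-named library 2, against 2 to 6 and 3 to 6. In the control-named table, -469.3 kb had 34 in library 3 (others 3 to 7), -331.1 kb had 27 in library 2 (4 to 5), and +133.2 and +139.7 kb had 20 and 25 in library 1 (2 and 1 in each other). In the IFNγ-named table, -142.3 kb had 19 in library 1 (2 to 4), -123.0 kb had 20 in library 2 (1 to 3), +123.2 kb had 22 in library 4 (1 to 4) and +207.7 kb had 20 in library 4 (1 to 2). The remaining flags were 3 reads against 1 at +133.2 kb in library 4 and 2 reads against 1 at +963.3 kb in library 3 of the same table.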

How the results depend on the processing

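Of 529 values under alternatives, 506 kept their direction and side of the threshold or stayed within 1.5 times the count. None moved past a threshold, and no main value stood past one from which to fall. A kept direction can hide a large change: at -142.3 kb the log2 difference went from 1.35 to 0.0047 without IFNγ-named library 1. Too few reads remained for a value at +963.3 kb without control-named library 4, and at +139.7 kb and Gsta1 without control-named library 1. The difference in downstream share reversed to 4.18 points from 20 kb on, and ran from -7.24 to 2.77 with 1 library left out. At a score of 3 or more, called fragments numbered 52 by the control-named scores and 41 by the IFNγ-named ones, and at 7 or more 0 and 3. By start sites within 5 kb, log2 differences turned to -0.79 at Fbxo9, 0.41 at Cgas and 0.50 at Gsta1. The Gsta1 share difference turned to 1.51 points. By that assignment 0 of the genes with 20 or more reads had libraries that did not overlap. Cgas had fewer reads than that there and its share was not compared, so this does not show that its libraries overlapped. From 20 kb on, the Gsta2 share difference was 0.196 points. With 1 library left out, genes without overlap numbered 1 to 2 (2 without control-named library 2 or 4). Log2 differences then ran from -1.52 to 0.15 at -469.3 kb, -0.50 to 1.64 at -123.0 kb, -1.47 to 0.11 at -11.7 kb, -0.37 to 2.21 at +207.7 kb, -0.24 to 1.03 at Mto1 and -0.17 to 2.15 at Slc17a5, and the Mto1 share difference from -0.050 to 1.43 points. The Mto1 log2 was -0.11, -0.24 and -0.02 without control-named library 1 or 2 or IFNγ-named library 3. For reversals the cause was not tested. No paired analysis was possible because the count columns carry no mouse or passage number. Depth, 159 to 298 reads per library in range, limits all of these.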
